A study of Glycine max with 12 samples.

Results

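The genes described here are the soybean matches of 3 morning clock activators of Arabidopsis, REVEILLE 8 (RVE8, AT3G09600) and NIGHT LIGHT-INDUCIBLE AND CLOCK-REGULATED 2 and 3 (LNK2 and LNK3). They were listed by gene identifier, and there are 8 of them among the 30459 genes that have a single entry in the deposited expression table. All 3 RVE8 matches of the table are listed, with 3 of its 4 LNK2 matches and 2 of its 4 LNK3 matches. The 8 genes were chosen by the deposited log2 difference between weedy and control plots in these same libraries, so that difference is given below as a description, with no test of any listed gene. All 8 genes passed the filter on low values.

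The plant circadian clock is a set of transcription factors that switch one another on and off over the day. In Arabidopsis, RVE8 is a MYB-like factor that is expressed in the morning and activates afternoon and evening clock genes. LNK proteins do not bind DNA by themselves, and they act as coactivators recruited to those genes by RVE8 and its relatives. The roles of the soybean copies are taken from their Arabidopsis matches. For each RVE8 copy the deposited table gives the match AT3G09600, but AT3G09610 as the name, with the function homeodomain-like superfamily protein. For the listed LNK copies it gives no function.

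RNA was sequenced from young leaves of soybean cultivar AG1631 in a field near Brookings, from trifoliates under 2 cm long at growth stage V3, pooled over at least 8 plants per plot. Weedy plots were compared with plots kept free of weeds by herbicide in 4 seasons, with 1 library per treatment in 2008 and 2009 and 2 per treatment in 2010 and 2011, 12 in all. The weeds were velvetleaf and buckwheat at 300 plants per square metre in 2008 and at 48 in 2009, flax at 600 in 2010, and velvetleaf with common sunflower at 160 in 2011. Control plots received S-metolachlor in 2008 and sethoxydim in 2009, for which the label gives a date one day after sampling. They received glyphosate in 2010, and glyphosate, S-metolachlor, sethoxydim and imazethapyr in 2011. Sampling was on June 23, 25, 22 and 29 of the successive seasons, with 12.4, 9.9, 19.4 and 24.2 cm of precipitation and mean temperatures of 23.9, 27.2, 25.6 and 26.1 °C. Replicate 1 had rows 76 cm apart and replicate 2, in 2010 and 2011, rows 18 cm apart. For 2010 and 2011 the spacing of each library was read from the words Row and Drill in the table's column names. The column names of 2008 and 2009 hold neither word. The label of weedy 2011 replicate 2 reports a corrupt file of second reads.

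Each season is 1 sampling day, so weed species, herbicide, weather, date and hour of sampling cannot be told apart between seasons. Wherever herbicide came before sampling, weeds and herbicide cannot be told apart within a season either, since control plots were kept weed-free by it. The terms weed test, weed effect and weed difference below mean weedy against control plots, with no cause implied. The hour matters for clock genes, and it is not given in the labels used here, for a season or for a plot. Nothing says how far the plots of a season were independent of one another, so p-values measure the spread between these libraries. Values are log2 FPKM as deposited, and all 12 libraries hold the same set of sorted values, from 0 to 13.50. The depth of the libraries is unknown. In whole leaves, fewer cells of a type and less RNA per cell cannot be told apart.

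The leaf origin was checked on marker genes. The summed level of 10 small Rubisco subunit and chlorophyll-binding protein genes lay between 12.93 and 14.89 (log2 of the sum of linear values) in the 12 libraries. It lay between 6.53 and 7.74 for 14 stem and vascular markers, namely secondary wall cellulose synthases and a phloem sucrose transporter. For 2 meristem genes it lay between 1.45 and 2.39.

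The 3 RVE8 copies differed widely in level. Glyma13g19910, at a mean log2 level of 4.36 ± 0.69 (SD over 12 libraries), stood at percentile 77.2 of all genes tested. Glyma10g05560 stood close below it, at 4.01, and Glyma03g33440 was at percentile 9.83, with a mean of 1.53 ± 1.16. The LNK2 copies were the most abundant of the 8, with means of 5.63 in Glyma11g21580, 5.69 in Glyma15g37980 and 5.84 in Glyma13g26930. Of the LNK3 copies, Glyma11g25860 averaged 4.26 and Glyma13g26110 averaged 2.71.

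**Figure D1:**
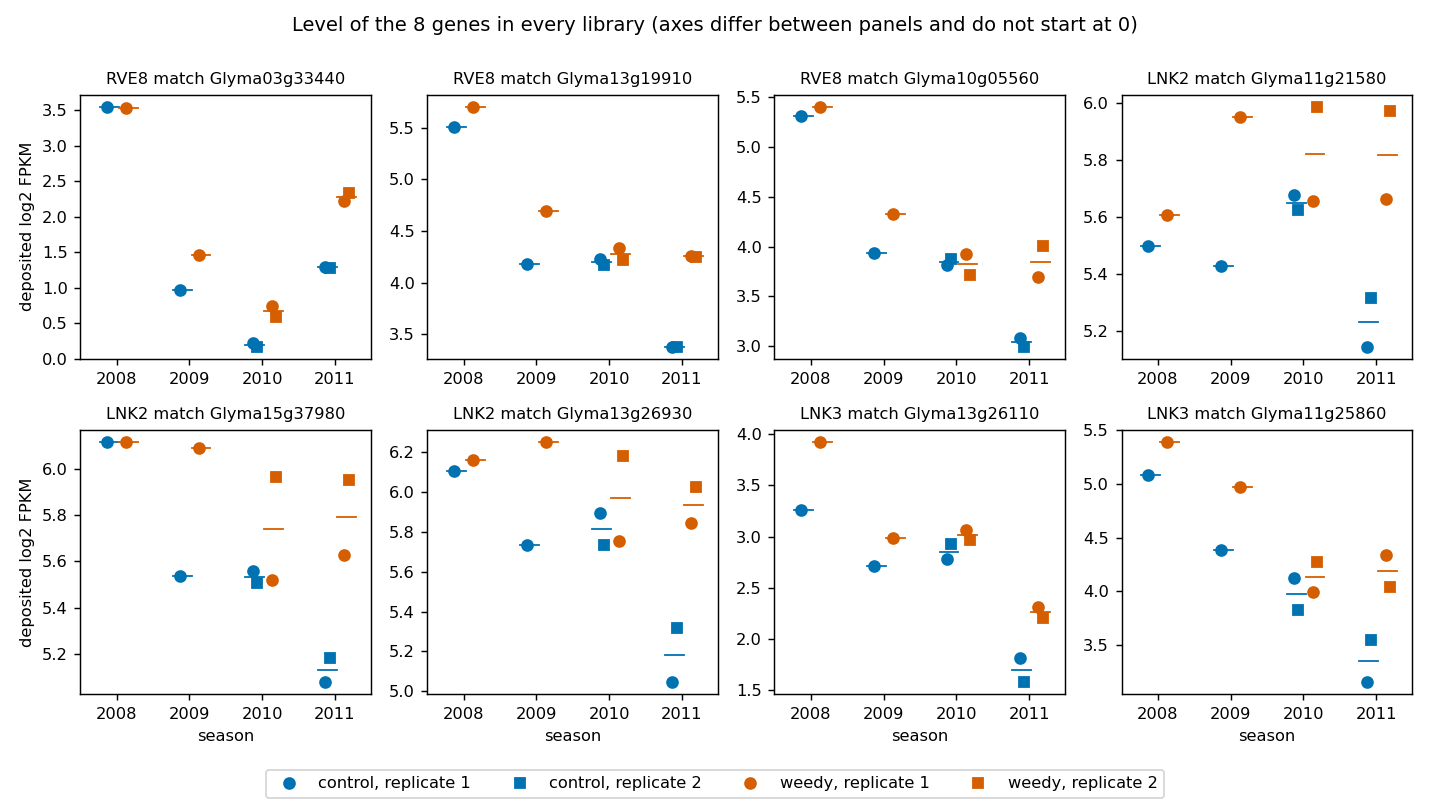
Deposited log2 FPKM (vertical axes, which differ between panels) of the 8 genes in each of the 12 libraries by season, with control plots in blue, weedy plots in orange, circles for replicate 1, squares for replicate 2 and a line at each mean. The 2 weedy libraries of 2011 lie above the 2 control libraries in all 8 panels, and the libraries of 2008 lie at the top of the 3 RVE8 panels.

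Among the RVE8 copies, weedy plots held more transcript than control plots in 2009 and 2011 for each copy, and for the 2 higher copies the pairs of 2008 and 2010 were closer. The low copy Glyma03g33440 read 3.55 in control and 3.53 in weedy leaves in 2008, and 0.97 and 1.46 in 2009. In 2010 its control libraries were at 0.22 and 0.16 and its weedy libraries at 0.75 and 0.58. In 2011 its control libraries were at 1.29 and 1.28 and its weedy libraries at 2.23 and 2.33. The weedy libraries were higher in 5 of 6 plot pairs, and the 2 treatments did not overlap within 2010 or within 2011. A plot pair here joins the weedy and control libraries of one season and replicate number. Such plots did not deviate together in 2010 or 2011 (r = -0.05 and 0.05), so the pairs are a way of counting. The mean difference over the pairs was 0.57 ± 0.39 (SD, n = 6 pairs). Its values in 2010 lie near the bottom of the scale, where a log2 difference can come from small changes of a low estimate.

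Glyma13g19910 read 5.50 in control and 5.71 in weedy leaves in 2008, and 4.18 and 4.70 in 2009. Its control libraries of 2010 were at 4.23 and 4.17 and its weedy libraries at 4.33 and 4.22. In 2011 both control libraries were at 3.38, and the weedy libraries were at 4.26 and 4.25. Weedy leaves were higher in 6 of 6 pairs, by 0.44 ± 0.38 (SD), but the treatments overlapped in 2010 and were apart in 2011. The 2011 difference of 0.88 is a linear ratio of 1.84, and that of 2010 was 0.07.

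Glyma10g05560 followed Glyma13g19910 closely. It read 5.31 in control and 5.41 in weedy leaves in 2008, and 3.94 and 4.33 in 2009. Its controls of 2010 were at 3.82 and 3.87 and its weedy libraries at 3.92 and 3.72. In 2011 the controls were at 3.08 and 2.99 and the weedy libraries at 3.69 and 4.003. The treatments overlapped in 2010, where the mean difference was -0.03, and stood apart in 2011, where it was 0.81.

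The 3 LNK2 copies shared one pattern, high in every library and lowest in the control plots of 2011. Glyma11g21580 read 5.50 in control and 5.61 in weedy leaves in 2008, and 5.43 and 5.95 in 2009. In the 2010 season its control libraries were at 5.68 and 5.62 and its weedy libraries at 5.66 and 5.99. In 2011 the controls were at 5.14 and 5.32 and the weedy libraries at 5.66 and 5.97. Only the 2011 libraries separated by treatment among the seasons with 2 libraries per treatment, with a difference of 0.59 against 0.17 in 2010.

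Glyma15g37980 read 6.12 in both treatments in 2008, and 5.54 in control against 6.09 in weedy leaves in 2009. Its controls of 2010 were at 5.56 and 5.51 and its weedy libraries at 5.52 and 5.96. In 2011 the controls were at 5.08 and 5.18 and the weedy libraries at 5.63 and 5.95. It was higher in weedy leaves in 4 of 6 pairs, the fewest of the 8 genes.

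Glyma13g26930 read 6.11 in control and 6.16 in weedy leaves in 2008, and 5.73 and 6.25 in 2009. The 2010 controls were at 5.89 and 5.73 and its weedy libraries at 5.76 and 6.18. In 2011 the controls were at 5.04 and 5.32 and the weedy libraries at 5.85 and 6.02. As in the other LNK2 copies, the 2 plot pairs of 2010 disagreed. In replicate 1 the 3 copies differed by -0.02, -0.04 and -0.14 between weedy and control leaves, and in replicate 2 they differed by 0.36, 0.46 and 0.45.

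The LNK3 copies stood at different levels and both were higher in weedy leaves in 2011. Glyma13g26110 read 3.26 in control and 3.92 in weedy leaves in 2008, and 2.71 and 2.99 in 2009. In 2010 its control libraries were at 2.78 and 2.93 and its weedy libraries at 3.06 and 2.97. In 2011 the controls were at 1.82 and 1.58 and the weedy libraries at 2.31 and 2.21. Weedy leaves were higher in 6 of 6 pairs, by 0.40 on average, and this is the one listed gene whose largest difference, 0.66, was in 2008.

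Glyma11g25860 read 5.09 in control and 5.39 in weedy leaves in 2008, and 4.39 and 4.97 in 2009. The controls of 2010 stood at 4.13 and 3.83 and the weedy libraries at 3.997 and 4.27. In 2011 the controls were at 3.15 and 3.55 and the weedy libraries at 4.34 and 4.04. The treatments overlapped in 2010 and were apart in 2011, with the 2 pairs of 2011 differing by 1.19 and 0.49.

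**Figure D2:**
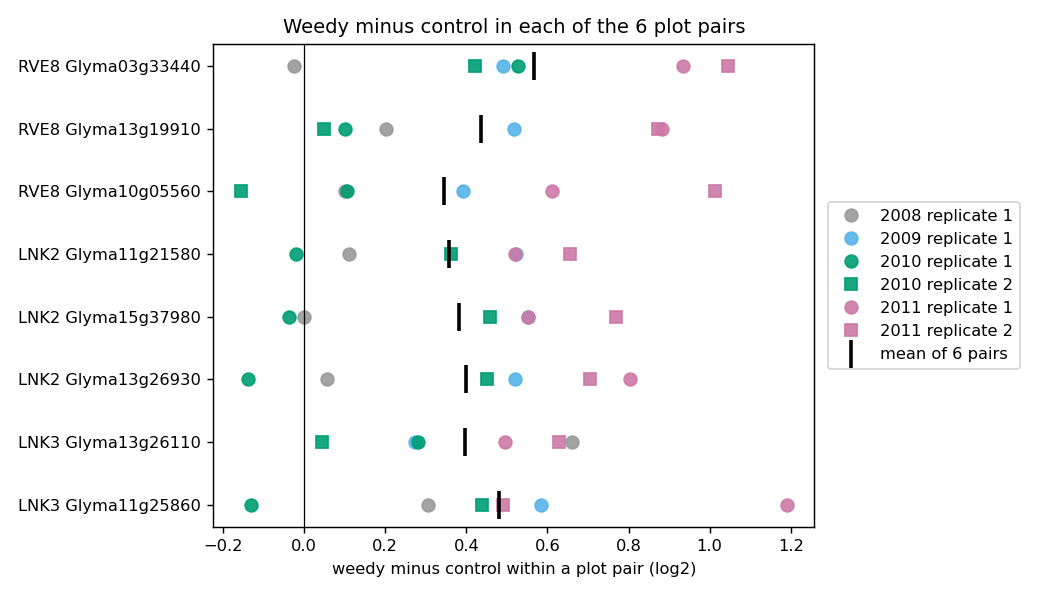
Weedy minus control (log2, horizontal axis) in each of the 6 plot pairs for each of the 8 genes, with colours for seasons, circles for replicate 1, squares for replicate 2 and a black bar at the mean of the 6 pairs. The means lie between 0.34 and 0.57, the pairs of 2011 lie between 0.49 and 1.19, and the few points below 0 come from 2008 and 2010.

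Across the 8 genes the mean weedy minus control difference ran from 0.34 in Glyma10g05560 to 0.57 in Glyma03g33440, where the median of all genes tested was -0.01. Weedy leaves were higher in all 6 pairs for 2 of the 8, against a background of 2.88% of genes, and in at least 5 of 6 pairs for 7 of the 8, against 13.6%. For 0 of the 8, against 0.0591% of all genes, did all weedy libraries lie above all control libraries. These counts come from the contrast on which the genes were chosen and serve as a description. In the limma fit with season as a covariate, 0 of 30456 genes (0% called) passed an adjusted p of 0.05 for weedy against control, and 3293 had an unadjusted p under 0.05. Without either library of 2008, 24 genes passed, and 6 passed without weedy 2010 replicate 1. All limma tests were moderated, with Benjamini-Hochberg adjustment over all genes tested, and the differences between 2 groups were tested two-sided.

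In 2011 the lower of the weedy libraries exceeded the higher of the controls for 8 of the 8 genes, against 20.6% of all genes, and in 2010 for 2 of the 8, against 20.4%. The 2010 genes were Glyma03g33440 and Glyma13g26110. These counts too come from the contrast on which the genes were chosen, so they are no evidence of an excess in 2011. The linear ratio of weedy to control leaves in 2011 ran from 1.48 in Glyma13g26110 to 1.99 in Glyma03g33440, and in 2010 from 0.983 in Glyma10g05560 to 1.39 in Glyma03g33440. The difference of 2011 exceeded that of 2010 by between 0.40, in Glyma13g26110, and 0.84, in Glyma10g05560. No gene of the whole table (0% called) passed the test that the 2 differences differ in the limma fit, and 4181 had an unadjusted p under 0.05. Without weedy 2010 replicate 1, 273 genes passed.

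Leaf and vascular markers also had different values in the 2 treatments, and none of them passed the weed test. In 2011, 10 of 10 leaf marker genes were higher in weedy plots, with a median difference of 1.10, and the summed level was 14.59 to 14.82 in weedy against 14.03 to 14.28 in control libraries. In 2010, 0 of 10 were higher, with a median difference of -0.46, and the sum was 12.93 to 13.31 in weedy against 13.76 to 13.99 in control libraries. The stem and vascular sum was 6.53 to 6.77 in weedy and 6.88 to 7.74 in control libraries of 2011. In that season 9 of 14 genes were lower and 5 higher, with a median difference of -0.33. The sucrose transporter matches Glyma16g27350 and Glyma02g08260 were among the higher, by 0.52 and 0.67. The cellulose synthase matches Glyma10g33300, Glyma17g08000 and Glyma08g09350 were higher by 0.34, 0.14 and 0.05. Lower by -1.01 to -1.69 were the cellulose synthase matches Glyma08g12400, Glyma15g16900, Glyma06g30860, Glyma09g05630, Glyma05g29240 and Glyma04g23530. The remaining cellulose synthase matches were lower by -0.10 to -0.44. In 2010 the sum was 6.79 to 7.34 in weedy and 6.90 to 7.11 in control libraries, with 5 of 14 genes lower. The 2 meristem markers were both lower in the weedy plots of 2011, with a median difference of -0.42. In 2010, 1 of them was lower and 1 higher. The median of all genes tested was -0.02 in 2011 and 0.01 in 2010. No marker list had a gene under 1 in every library, and the part of these markers in the differences of the 8 genes was not tested.

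The treatments of 2010 and 2011 can also be read the other way, as the change between the seasons within a treatment. For 6 of the 8 genes the weedy mean was nearly the same in both seasons, with differences between -0.03 in Glyma13g26930 and 0.06 in Glyma11g25860. The control mean of the same 6 genes was lower in 2011, by -0.40 in Glyma15g37980 to -0.82 in Glyma13g19910. The exceptions were Glyma03g33440, which was higher in 2011 by 1.10 in control and 1.61 in weedy leaves, and Glyma13g26110, which differed by -1.15 in control and -0.75 in weedy leaves. For 7 of the 8 genes the lowest of the 12 libraries was a control library of 2011. These values share their libraries with the treatment contrast and were not tested.

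**Figure D3:**
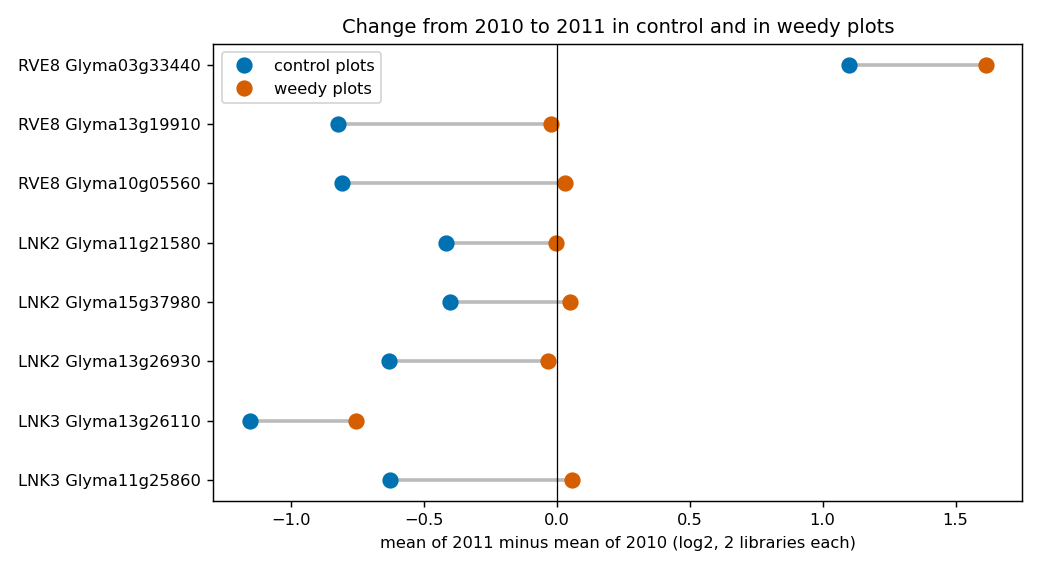
Mean of 2011 minus mean of 2010 (log2, horizontal axis, 2 libraries per mean) in control plots (blue) and weedy plots (orange) for each of the 8 genes. The weedy points of 6 genes lie at 0 within 0.06, and the control points of the same genes lie between -0.40 and -0.82.

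Season was independent of the contrast that chose the genes, since each season held equal numbers of both treatments, and it was tested over all libraries with treatment as a covariate. The F test over the 4 seasons called 6 of the 8 genes, against a background of 67.1% of all genes, so this share is near that of the table. The called genes were the 3 RVE8 copies, both LNK3 copies and the LNK2 copy Glyma15g37980. The last rests on single libraries. Its adjusted p was 0.0398, and it ran from 0.0519 to 0.221 in the 8 fits without 1 library in which the call was lost, those without any 1 of the 6 control libraries, weedy 2009 replicate 1 or weedy 2011 replicate 1. The LNK2 copies Glyma13g26930 and Glyma11g21580 did not pass, with adjusted p of 0.0679 and 0.431 by limma. Glyma13g26930 passed without weedy 2010 replicate 1 (0.0295) or weedy 2011 replicate 2 (0.0409).

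The season means had 2008 at the top for 7 of the 8 genes. Compared with 2008, 4 of the 8 genes were called in 2009, where 43.8% of all genes were called and 21.8% were lower. In 2010 6 were called, against 55.5% of all genes and 26% lower, and in 2011 7 were called, against 41.1% and 19.2% lower. All of these calls were lower than 2008. The 4 genes of 2009 were all 3 RVE8 copies and the LNK3 copy Glyma13g26110. The call of Glyma13g26110 in 2009 and in 2010 was lost without weedy 2008 replicate 1, with limma adjusted p of 0.0518 and 0.0528. The call of Glyma15g37980 in 2010 was lost in 8 fits without 1 library, with adjusted p of 0.0509 to 0.414, namely those without control 2011 replicate 2, any control library of 2008 to 2010, or replicate 1 of the weedy plots of 2009, 2010 or 2011. The calls of Glyma15g37980 and Glyma13g26930 in 2011 were lost without control 2008 replicate 1, with adjusted p of 0.214 and 0.322. The call of Glyma13g26930 was lost too without control 2011 replicate 1 (0.0813), control 2011 replicate 2 (0.0655) or weedy 2008 replicate 1 (0.0512). Glyma11g25860 in turn was called lower in 2009 without control 2011 replicate 1 (0.0388) or weedy 2011 replicate 1 (0.0475). Each treatment had 1 library in 2008, so these differences rest on 2 libraries.

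For the RVE8 copies the season order differed. Glyma13g19910 stood at 5.60 in 2008, 4.44 in 2009, 4.24 in 2010 and 3.82 in 2011. The step from 2008 to 2009 passed the test, at 1.17 ± 0.21 (SE, limma adjusted p = 0.00154), as did the step from 2010 to 2011 (0.0397). The step from 2009 to 2010 did not, and that of 2010 to 2011 was lost when 1 of 6 single libraries was left out, with adjusted p of 0.0525 to 0.115. Those were the control libraries of 2009, 2010 and 2011 and weedy 2009 replicate 1. Glyma10g05560 had the same order, 5.36, 4.13, 3.83 and 3.44, and only its first step passed, at 1.22 ± 0.23 (limma adjusted p = 0.00203). Its last step had an adjusted p of 0.0754, and passed without weedy 2010 replicate 2 (0.0335) or weedy 2011 replicate 2 (0.0197).

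The low RVE8 copy, Glyma03g33440, had another order. It stood at 3.54 in 2008, 1.78 in 2011, 1.22 in 2009 and 0.43 in 2010. The step from 2008 to 2011 passed, at 1.76 ± 0.20 (limma adjusted p = 0.000106), and its libraries in 2008 did not overlap those of 2011. The steps from 2011 to 2009 and from 2009 to 2010 did not pass, at limma adjusted p of 0.0668 and 0.0701. The former passed without either library of 2008 (0.0452 in both cases). Its rise from 2010 to 2011 did, at 1.36 ± 0.16 (limma adjusted p = 0.000304), and it was the one gene of the 8 called higher in 2011 than in 2010. That difference called 3 of the 8 genes against 41.2% of all genes, of which 20.5% were higher. It kept its call in each of 17 alternatives, and the level of 2010 is close to 0 on the scale.

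Of the LNK2 copies, Glyma11g21580 ranged over season means from 5.52 in 2011 to 5.74 in 2010 and none of its neighbouring seasons differed by the limma test. Glyma15g37980 ran from 6.12 in 2008 through 5.81 and 5.64 to 5.46 in 2011, and Glyma13g26930 from 6.14 through 5.99 and 5.89 to 5.56 in the same order. No step between neighbours passed for either, but the last step of Glyma13g26930 did without weedy 2010 replicate 1 (0.0365). The LNK3 copy Glyma11g25860 went from 5.24 through 4.68 and 4.06 to 3.77, and there too no step between neighbours passed, while 2010 and 2011 both differed from 2008 (limma adjusted p = 0.000641 and 0.000322).

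The other LNK3 copy, Glyma13g26110, differed between 2011 and each other season, although the call against 2009 was lost without control 2009 replicate 1 (limma adjusted p = 0.0648). It stood at 3.59 in 2008, 2.93 in 2010, 2.85 in 2009 and 1.98 in 2011. The difference of 2011 from 2010 was -0.95 ± 0.11 (SE, limma adjusted p = 0.000304), and all 4 libraries of 2011 lay below all libraries of the other seasons. It and Glyma13g19910 were the 2 genes of the 8 called lower in 2011 than in 2010, against 20.7% of all genes.

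Compared with 2009, 0 of the 8 genes was called in 2010, against 1.74% of all genes, and the smallest unadjusted p was 0.00218, in Glyma03g33440. In 2011 4 genes were called against 2009, where 19.3% of all genes were called, and all 4 were lower (8.42% of all genes), namely Glyma13g19910, Glyma10g05560, Glyma13g26110 and Glyma11g25860. That count fell to 0 without control 2009 replicate 1 and to 1 without weedy 2009 replicate 1. It was 2 without either control library of 2011. Glyma10g05560 also lost its call without weedy 2011 replicate 1, at a limma adjusted p of 0.0515. Each treatment had 1 library in 2009.

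Row spacing had no call among the 8 genes or among all 30456 (0% called), and 1716 genes had an unadjusted p under 0.05. The differences between rows 18 cm and 76 cm apart, in the 8 libraries of 2010 and 2011, ran from -0.07 ± 0.12 (SE) in Glyma13g26110 to 0.21 ± 0.14 in Glyma15g37980. In the 3 LNK2 copies they were 0.18 to 0.21, and in the other 5 genes -0.07 to 0.02. Without 1 library they ran from 0.04 to 0.34 in the LNK2 copies, lowest without weedy 2010 replicate 1 and highest without control 2010 replicate 1, and from -0.18 to 0.18 in the others.

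Copies of one match did not all keep a fixed distance. Glyma13g19910 exceeded Glyma10g05560 by 0.41 ± 0.08 (SD) in 2010 and by 0.37 ± 0.14 in 2011, 4 libraries each. Glyma03g33440 minus Glyma13g19910 averaged -3.81 in 2010, from -4.01 to -3.58, and -2.03 in 2011, from -2.09 to -1.92. The ranges of the 2 seasons did not overlap, and the distance narrowed by 1.78 ± 0.12 (SE). In an exact two-sided permutation test over the 8 libraries this gave p = 0.0286, the smallest that 70 arrangements allow, and 0.0667 after adjustment over the 7 pairs of copies compared. The comparison of copies was chosen after their values were seen, and the adjusted p did not pass 0.05.

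Against the other RVE8 copy, Glyma10g05560, the distance narrowed by 1.75 ± 0.16, with the same exact permutation p of 0.0286 (0.0667 adjusted). Both distances rest on the values of Glyma03g33440 in 2010, near the bottom of the scale. The LNK3 copies moved the other way, since Glyma13g26110 minus Glyma11g25860 was -1.12 in 2010 and -1.79 in 2011, with an exact permutation p of 0.0571 (0.1 adjusted). Among the LNK2 copies Glyma15g37980 minus Glyma13g26930 was -0.25 in 2010 and -0.10 in 2011, with an exact permutation p of 0.0286 (0.0667 adjusted). No pair of copies passed 0.05 after adjustment. The other 3 pairs had exact p of 0.114, 0.4 and 0.657. Reads shared between near-identical copies may have been divided between them, and the sources used here do not say how the authors' counting treated them.

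**Figure D4:**
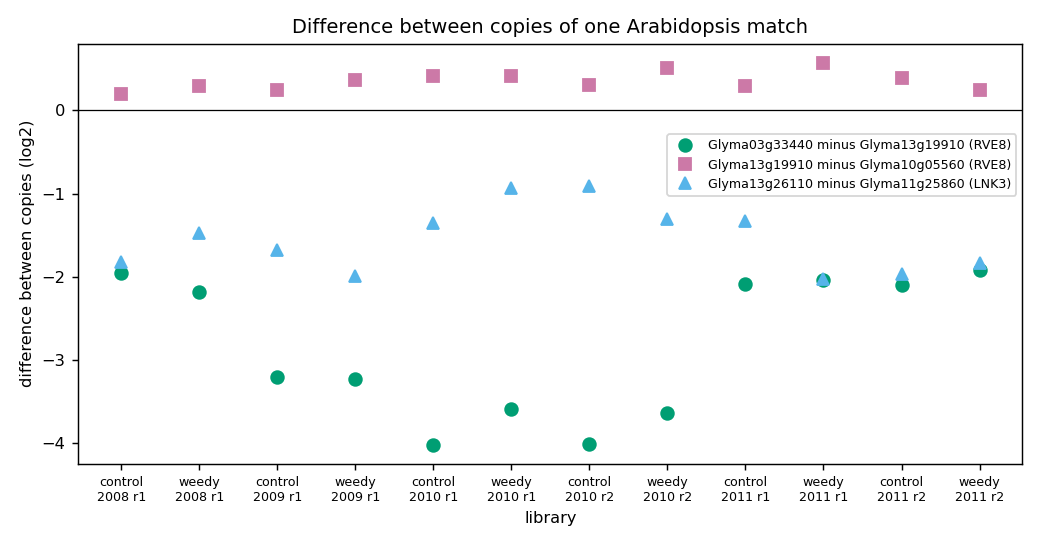
Difference in log2 level between copies of one Arabidopsis match (vertical axis) in each of the 12 libraries. The distance of the 2 higher RVE8 copies (squares) stays above 0 and below 0.6, that of the low RVE8 copy from Glyma13g19910 (circles) is -4.01 to -3.58 in 2010 and -2.09 to -1.92 in 2011, and triangles show the LNK3 copies.

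The 8 genes varied together within seasons. With the season mean taken off each value, Pearson's r between pairs of the 8 genes over the 12 libraries ran from 0.60 to 0.99, with a median of 0.84 over 28 pairs. On the values as they stand it ran from -0.04 to 0.99, with a median of 0.73. The highest was that of the RVE8 copies Glyma13g19910 and Glyma10g05560 at 0.99, and with the season mean taken off it was among the LNK2 copies, whose 3 pairs had values of 0.98 to 0.99. These libraries share seasons and treatments, and the genes were picked for one treatment direction, so the correlations are descriptions.

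Among genes outside the list, the most alike in pattern were named by Pearson's r over the 12 libraries, which does not compare levels. The r of the 3 highest genes per listed gene lay between 0.868 and 0.986 on the values as they stand, and between 0.929 and 0.991 with the season mean taken off. Glyma16g01980, a match of the morning factor LHY, was the most like Glyma15g37980, at 0.952, and ranked 2 for Glyma13g26930, at 0.936. Glyma19g45030, another LHY match, ranked 3 for Glyma13g26110, at 0.945. The unlisted LNK3 match Glyma15g36790 was first for Glyma10g05560, at 0.984, and ranked 3 for Glyma13g19910, at 0.977. With the season mean taken off, Glyma15g27750, annotated as a member of the MtN3 nodulin family, was first for Glyma15g37980, at 0.991, and for Glyma11g21580, at 0.978.

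Among the other listed genes, on the values as they stand, a lectin protein kinase match, Glyma08g06550, was first for Glyma03g33440 (0.986). A match of the regulator of chromosome condensation (RCC1) family, Glyma18g03870, was first for Glyma13g26110 (0.972). Glyma15g14540, a pectin lyase-like match, was first for Glyma13g19910 (0.978). Glyma19g37700 was first for Glyma11g21580 (0.902), the histone family match Glyma15g32270 for Glyma13g26930 (0.939) and Glyma04g01580 for Glyma11g25860 (0.960). With the season mean taken off, the metallothionein match Glyma12g24840 was first for Glyma11g25860, at 0.991.

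The matches of LNK2 and LNK3 that are not listed, 3 in all, were measured too. The LNK2 match Glyma04g26800 was higher in weedy leaves in 5 of 6 pairs, by 0.25 on average and by 0.44 in 2011. The LNK3 match Glyma15g36790 was also higher in 5 of 6 pairs, by 0.22 on average and by 0.48 in 2011. The LNK3 match Glyma04g16720, at a mean level of 1.67, was higher in 6 of 6 pairs, by 0.75 on average, by 0.56 in 2010 and by 0.73 in 2011. None of them passed the weed test in the limma fit.

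The rest of the clock was counted from lists of Arabidopsis loci. No gene of any list passed the weed test, so the directions below are counts of differences above or below 0. Of all genes tested, 47.9% were above 0. LHY and CCA1 are MYB factors of the morning that repress evening genes, and the table holds 4 LHY matches. All 4 were higher in weedy leaves on average, with a median difference of 0.56 overall and 0.98 in 2011. Glyma19g45030 differed by 0.70 and Glyma03g42260 by 0.75, each higher in 6 of 6 pairs. They were lower in 2011 than in 2010, by -1.05 ± 0.16 (SE, limma adjusted p = 0.000943) and by -1.29 ± 0.24 (0.00237), and 3 of the 4 were called lower.

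The other RVE activators, matches of the RVE8 relatives RVE5 and RVE6, numbered 8, and 7 of them were above 0 with a median difference of 0.13 and of 0.16 in 2011. Of these, 6 passed the season test, against 67.1% of all genes. Glyma20g30250 and Glyma10g37520, both RVE6 matches, differed by 0.28 and 0.12 between weedy and control leaves. In 2011 these 8 matches of RVE5 and RVE6 differed by -0.21 to 0.22, below each of the 3 RVE8 copies. The RVE8 copies were chosen on this difference, so their higher place is no evidence that they differ from these relatives.

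RVE1, RVE2 and RVE7 are related factors that act on clock outputs rather than in the central loop, and 6 matches were present. Of these, 5 were above 0, with a median of 0.12, and all 6 were called lower in 2011 than in 2010, against 20.7% of all genes. The RVE1 match Glyma14g39130 was lower by -1.24 ± 0.12 (SE, limma adjusted p = 0.000151) and Glyma02g40800 by -1.09 ± 0.16 (0.000897).

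Of the 7 LNK matches outside the list, 4 were above 0 and 5 passed the season test, against 47.9% and 67.1% of all genes. Of the 4 LNK1 matches, Glyma15g05850 differed by 0.08, Glyma08g19150 by -0.02 and Glyma08g07820 by -0.07. Glyma05g24590, named after its value was seen, was lower in weedy leaves in 6 of 6 pairs, by -0.61 on average and by -0.99 in 2010.

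The pseudo-response regulators are daytime repressors of LHY and CCA1, and 9 of their 11 matches were above 0, with a median of 0.08. Between 2010 and 2011, 4 were called higher and 0 lower, against 20.5% and 20.7% of all genes. The PRR3 match Glyma11g15580 rose by 0.80 ± 0.12 (SE, limma adjusted p = 0.000836), and the PRR5 match Glyma04g40640 differed by -0.03 between treatments. The evening genes TOC1, GI and ELF3, which act late in the day and are targets of morning factors, numbered 12, and 9 were below 0 in weedy leaves with a median of -0.10. In 2011, 5 of the 12 were called higher than in 2010, against 20.5% of all genes, and 0 lower, against 20.7%.

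The GI match Glyma10g36600 rose by 1.42 ± 0.09 (SE, limma adjusted p = 1.25e-05) from 2010 to 2011, and the ELF3 match Glyma07g01600 by 0.78 ± 0.16 (0.00369). TOC1 matches, named after their values were seen, were lower in weedy leaves in 2011, by -0.58 in Glyma06g21120, -0.49 in Glyma17g11040, -0.16 in Glyma04g33110 and -0.10 in Glyma05g00880. Of the 12 evening genes, 9 were below 0 and 3 above 0 in 2011. Those above were the ELF3 matches Glyma07g01600 (0.60) and Glyma08g21110 (0.49) and the GI match Glyma20g30980 (0.02).

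Of the cycling DOF factors, which repress flowering genes and are under clock control, 11 of 13 matches were above 0, with a median of 0.26 and of 0.53 in 2011. The CDF3 match Glyma04g33410 differed by 0.54, higher in 6 of 6 pairs, and the CDF2 match Glyma07g35690 by 0.32. The ZTL family, photoreceptors that mark clock proteins for degradation, had 6 matches, of which 4 were above 0 with a median of 0.05. The ZTL matches Glyma09g06220 and Glyma15g17480 differed by 0.08 and 0.05. Of 2 anthocyanin pathway genes, LDOX match Glyma01g42350 differed by -0.31 and DFR match Glyma02g18380 by 0.07.

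**Figure D5:**
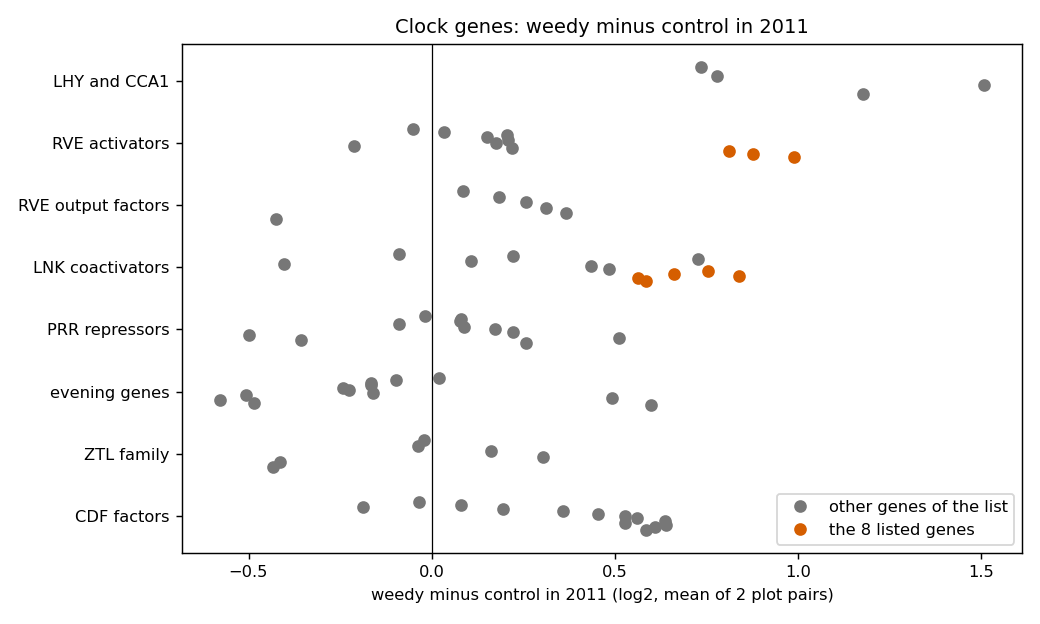
Weedy minus control in 2011 (log2, horizontal axis, mean of 2 plot pairs) for each gene of 8 clock lists, with the 8 listed genes in orange and the other genes of each list in grey. The orange points lie between 0.56 and 0.99, the 4 LHY matches between 0.73 and 1.51, and 9 of the 12 evening genes lie below 0.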

How the data were processed

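Expression of soybean leaf genes was analysed from one deposited table of log2 FPKM values for 12 libraries. Per the submitters' processing notes the programs were TopHat, Cufflinks and Cuffdiff, each listed as version 1.0, and per the file headers the gene models were Phytozome 9.0. The genome build and the strandedness of counting are not given in the sources used here. The authors brought the log2 values of all libraries to one distribution by a step not stated (10 values at 0 per library), so totals and depth cannot be recovered. The authors also deposited log2 ratios, which equal the differences of season means recomputed here, and Cuffdiff p-values and q-values, which were not used because the genes were chosen on that contrast.

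After 39 entries of 19 repeated identifiers were left out of 30498, 3 genes that did not reach a log2 value of 1 in 3 libraries were dropped and 30456 kept. Linear models came from limma (version 3.58.1, under R 4.3.3 with statmod 1.5.0), with its trended and robust eBayes settings, and tests were two-sided with Benjamini-Hochberg adjustment over all genes tested and a threshold of 0.05. The weed and season effects came from one fit, with season and treatment as terms. Row spacing and the interaction were fitted on the 8 libraries of 2010 and 2011. The fit was tested on simulated data. The listed genes, the clock lists and the tests were chosen with earlier results of these data known.

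All 8 listed genes are named, with the unlisted matches of the same loci and the 2 genes of smallest season p in each clock list. Of the 3 genes most like each listed gene by Pearson's r, those that came first or recurred are named. The table held no matches for 2 clock lists, of cold-regulated clock genes and of heat factors expressed at midday. Of the gene identifiers, 0 matched the reference gene table at hand, so no sequence or position is given. Alternatives were another pseudocount, other filters, other fit terms, each library left out and the plot pair as a block. For row spacing the last of these added the interaction of season and treatment instead, with no term for the plot pair.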

Additional observations from a re-analysis of the deposited data

Results flagged for a closer look

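Of the 8 genes, 3 had a value that stood apart from the other 5 libraries of their treatment, with a gap to the nearest one above Dixon's critical value for 6 samples. All 3 were in RVE8 copies and in libraries of 2008. Glyma03g33440 was at 3.55 in control 2008 replicate 1, Glyma13g19910 at 5.71 in weedy 2008 replicate 1 and Glyma10g05560 at 5.41 in weedy 2008 replicate 1. Tests were made in 16 groups, the 8 genes in 2 treatments, and chance flags about 1 group in 20. Each treatment group mixes 4 seasons, and 2008 has 1 library per treatment.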

How the results depend on the processing

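For single listed genes, 1287 values under an alternative counted as the same, 48 lost a call and 15 gained one. Tested values counted as the same when they stayed on the same side of the threshold. The 1287 include 143 weed differences and 103 differences of 2011 minus 2010 in the weed effect, which were not tested. These counted as the same when they moved by less than the residual SD of the gene. Among all the values the sign changed in 20, none of them a called value, 14 of these in row spacing. Same-numbered plots of the 2 treatments did not deviate together (r = -0.05 in 2010 and 0.05 in 2011). The numbers also carry the row spacing, so the main fits did not pair the plots by them. The counts and means over plot pairs given above join same-numbered plots and are descriptions. With the plot pair as replicate block, 2639 genes were called for 2010 against 2009 (531 without it) and 9661 for 2011 against 2009 (5876 without it), and 2 listed genes were called for 2010 against 2009, Glyma03g33440 (adjusted p = 0.0191 by limma) and Glyma11g25860 (0.0397). The block also called Glyma13g26930 for season (0.0249), Glyma11g25860 for 2009 against 2008 (0.0247), Glyma03g33440 for 2011 against 2009 (0.0230) and Glyma10g05560 for 2011 against 2010 (0.0284), and ended no call of a listed gene. In the block fit of the seasons the consensus correlation within plot pairs was -0.23. A negative value lowers the standard error of a season difference, and the added calls of the block rest on it. Without treatment in the fit, 2 listed genes were called for 2011 against 2009. In that fit Glyma15g37980 lost its calls for season (adjusted p = 0.134 by limma), 2010 against 2008 (0.117) and 2011 against 2008 (0.0512). Glyma13g26930 lost its call for 2011 against 2008 (0.0952), and Glyma13g19910 lost that for 2011 against 2010 (0.134). Leaving out 1 library gave 0 to 24 genes called for weeds, 0 to 273 for the difference of the weed effect between 2011 and 2010, 8408 to 14681 for 2009 against 2008, 6730 to 13875 for 2011 against 2008, 108 to 860 for 2010 against 2009 and 656 to 7842 for 2011 against 2009, with 0 to 5 listed genes in the last. The 24 came without either library of 2008 and the 273 without weedy 2010 replicate 1. The cause was not tested. With 1 library per treatment in 2008 and 2009, a lone library is assumed to vary like the others, and the number of libraries and the unknown depth limit what can be seen in low genes such as Glyma03g33440.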
